A study of Mus musculus with 6 samples.

Results

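Ferroptosis is a form of cell death that depends on iron and on the peroxidation of lipids, and the expression of 8 genes that drive it or defend against it was described in CD36+ NK and CD36- NK cells. The genes were taken by symbol from the deposited table, and all 8 were found among its 57180 genes. They were Acsl4, which supplies the lipids that are oxidized, Gpx4, Slc7a11, Aifm2 and Gch1, which protect against the oxidation, Nfe2l2, which controls antioxidant genes, and Ncoa4 and Prnp, which act on iron. NK cells (CD3- NK1.1+) had been sorted by CD36, a scavenger receptor that takes up fatty acids, from fibrotic livers of C57BL/6J mice. The mice were males of 6 to 8 weeks that had received carbon tetrachloride, CCl4, a toxin that scars the liver, at 2.5 ml/kg of a 20% solution in olive oil, with 2 injections per week for 4 weeks, and livers were taken 48 h after the last injection. RNA of 3 CD36+ NK and 3 CD36- NK libraries was sequenced, with 10292480 to 13787189 counts per library. The series calls the libraries biological triplicates but does not say whether they came from separate mice or from pools, so the p-values measure the spread between these libraries.

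In ferroptosis, long-chain acyl-CoA synthetase 4 places polyunsaturated fatty acids into membrane phospholipids, where iron and lipoxygenases turn them into peroxides. Glutathione peroxidase 4 reduces these peroxides with glutathione, whose synthesis needs the cystine that the antiporter xCT brings in. Ferroptosis suppressor protein 1 and tetrahydrobiopterin form 2 further lines of defence that do not use glutathione, and the transcription factor NRF2 raises many of the protective genes. Iron enters on transferrin, is stored in ferritin and is set free again when ferritin is digested in lysosomes.

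The labels and the makeup of the libraries were checked first. Cd36 was at 110, 263 and 238 CPM (counts scaled by the TMM method to a common library size) in CD36+ NK and at 14.3, 31.7 and 17.1 CPM in CD36- NK, so that the groups named by the sample titles did not overlap. The list of 10 NK lineage genes summed to 1133 to 1385 CPM in CD36+ NK and to 5898 to 7702 CPM in CD36- NK, and 10 of 10 were lower in CD36+ NK in the test used below. Klrb1c, the gene of the NK1.1 antigen used in the sort, had 77.9 to 106 CPM in the former and 448 to 524 CPM in the latter. The 12 macrophage and Kupffer cell genes summed to 6736 to 9368 and 2472 to 5812 CPM. Of the 10 tested, 10 had a positive log2 fold change with a median of 2.89, 9 had groups apart and 4 were called higher, beside 5.07% of all tested genes. Clec4f had 45.9 CPM in CD36+ NK replicate 2 and 1.51 in replicate 1, and was at 0 in CD36+ NK replicate 3 and in each CD36- NK library. Lyz2, the most expressed, had a log2 fold change of 0.09 (-0.20 without CD36- NK replicate 3). The sums were 4841 to 5395 and 3281 to 3677 CPM for B cell genes (6 of 8 called higher, with Cd79a the most expressed) and 349 to 786 and 76 to 165 CPM for erythroid genes (6 of 8 called higher, with Hbb-bs the most expressed). T cell genes summed to 301 CPM in CD36+ NK replicate 1 and to 25.6 to 45.3 CPM in the other 5 libraries. All 7 had a positive log2 fold change, and 2 of 7, Cd4 and Cd8a, were called higher with groups apart. Neutrophil genes summed to 3198, 463 and 685 CPM in CD36+ NK and to 1212 to 2866 CPM in CD36- NK, with 0 of 7 called. The sums overlapped for monocyte genes (1298 to 3392 and 1666 to 3195 CPM, 2 of 8 called higher and 1 lower). For dendritic cell genes they were lower in CD36+ NK (462 to 523 and 612 to 815 CPM). The most expressed of these was Itgax, the 1 called lower, at 197, 250 and 255 CPM against 415, 513 and 611 CPM. Xcr1 and Clec9a were the 2 of 8 called higher, and 6 of the 8 had a positive log2 fold change (median 0.38). In bulk libraries fewer cells of a type and less RNA per cell cannot be told apart.

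Of the 8 genes, Nfe2l2 and Prnp were called higher in CD36+ NK and none was called lower. Both passed the quasi-likelihood test of edgeR with Benjamini-Hochberg adjustment over the 14761 genes tested (adjusted p below 0.05), and Prnp also passed a fold change above 2, the study's definition of a differentially expressed gene (DEG). All 8 genes had enough counts to be tested. The 2 genes called were 25.0% of the 8, where 10.5% of all tested genes were called (749 higher, 5.07%, and 803 lower, 5.44%) and 5.96% were DEGs. Slc7a11, Nfe2l2, Ncoa4 and Prnp had each CD36+ NK library above each CD36- NK library, and Aifm2 had the reverse, so the groups were apart in 5 of 8 genes, where 32.8% of all tested genes had groups that did not overlap. The median log2 fold change, CD36+ NK against CD36- NK, was 0.31 over the 8 genes and 0.01 over all tested genes.

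**Figure D1:**
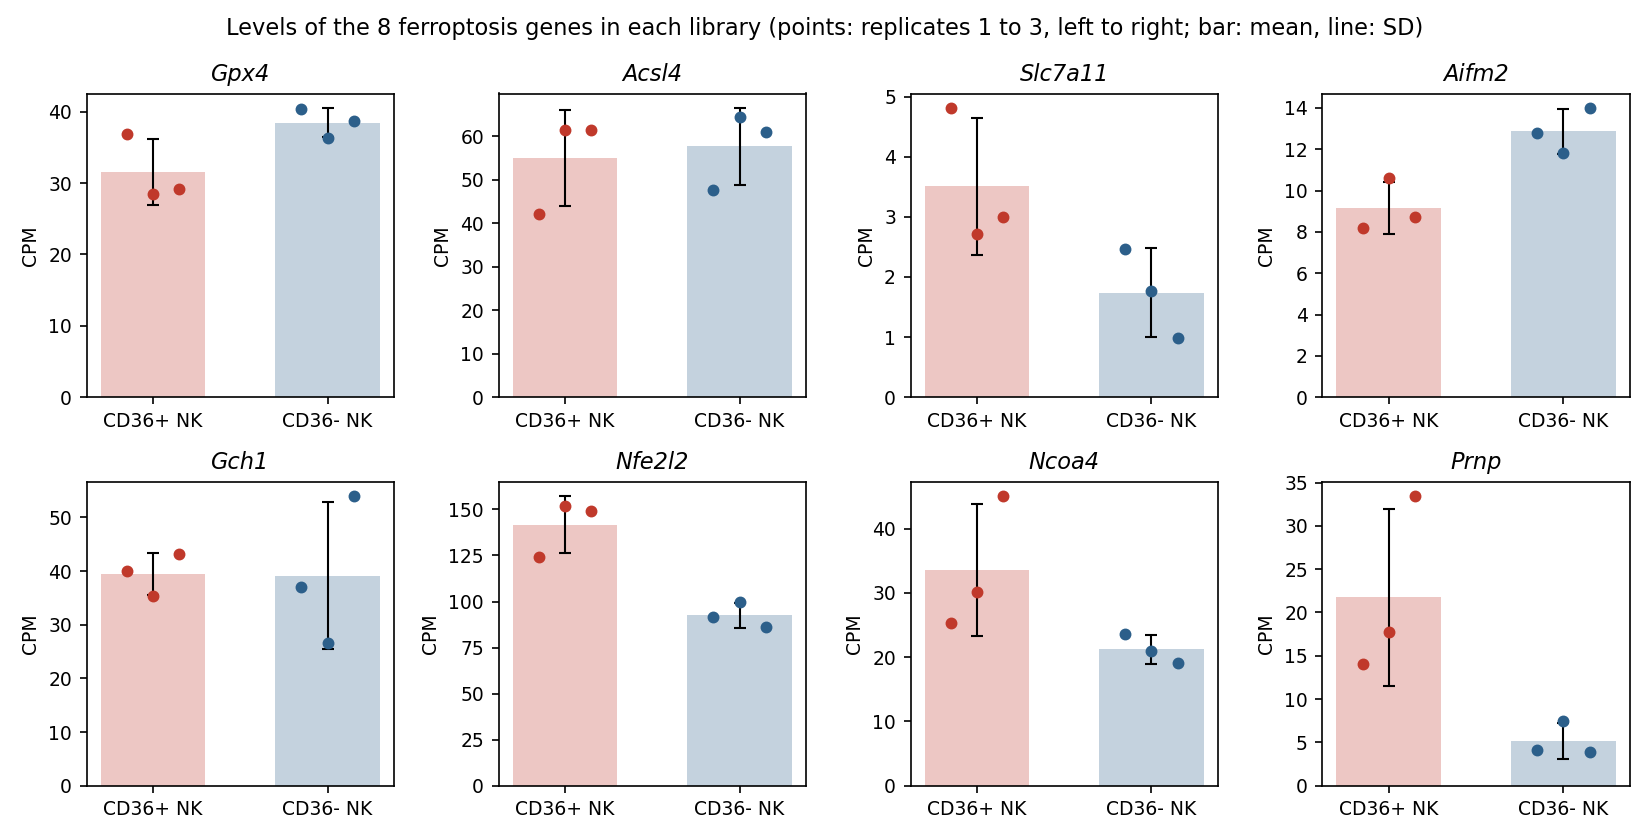
Level in CPM of each of the 8 genes in the 3 CD36+ NK (red) and 3 CD36- NK (blue) libraries, with replicates 1 to 3 from left to right, bars for means and lines for SD. The red points of Slc7a11, Nfe2l2, Ncoa4 and Prnp sit above the blue ones, those of Aifm2 sit below, and those of Gpx4, Acsl4 and Gch1 overlap.

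Acsl4 (ENSMUSG00000031278), the driver at the lipid step, is on chromosome X (141100989 to 141173531, minus strand). All gene positions are those of the table, whose genome build it does not state. It was at 42.2, 61.4 and 61.4 CPM in CD36+ NK replicates 1 to 3 and at 47.7, 64.5 and 60.9 CPM in CD36- NK replicates 1 to 3. The groups overlapped, and replicate 1 was the lowest library in each. The means were 55.0 ± 11.1 (SD, n = 3) and 57.7 ± 8.85 CPM, with a log2 fold change of -0.07 (95% interval -0.50 to 0.36, edgeR adjusted p = 0.859). The interval leaves room for a change of either sign.

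The neighbours of Acsl4 were Lpcat3, which carries out the next step by inserting the activated fatty acid into phospholipids, Alox5, a lipoxygenase that oxidizes arachidonic acid, and Ptgs2, the gene of cyclooxygenase 2, which is used as a mark of ferroptosis. Alox5 was at 30.8, 29.2 and 25.6 CPM in CD36+ NK and at 18.8, 13.6 and 8.50 CPM in CD36- NK. It rose with a log2 fold change of 1.06 (95% interval 0.43 to 1.69), with an edgeR adjusted p just under 0.05. The call was lost with upper-quartile scaling, with no filter on low counts and with genes and pseudogenes summed (edgeR adjusted p = 0.0544, 0.0731 and 0.0505). Lpcat3 had a log2 fold change of 0.21 (95% interval -0.05 to 0.48, edgeR adjusted p = 0.293) and did not pass. Ptgs2, at 38.2, 25.1 and 26.2 CPM against 25.1, 18.1 and 24.6 CPM, had one of 0.40 (95% interval -0.09 to 0.89, edgeR adjusted p = 0.283), and the groups met at about 25 CPM. Of 14 lipid peroxidation genes tested, Alox5 was the 1 called, beside 10.5% of all tested genes, and the median log2 fold change was 0.42, beside 0.01 over all tested genes.

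Gpx4 (ENSMUSG00000075706), which encodes the selenoenzyme that reduces lipid peroxides in membranes, lies on the plus strand of chromosome 10 from 79883000 to 79892273. It had 415, 388 and 351 counts in CD36+ NK and 526, 411 and 396 counts in CD36- NK. These were 36.9, 28.5 and 29.2 CPM against 40.4, 36.3 and 38.7 CPM, so CD36+ NK replicate 1 reached into the range of CD36- NK and the other 2 lay below it. With means of 31.6 ± 4.67 and 38.5 ± 2.05 CPM (SD, n = 3), the log2 fold change was -0.29 (95% interval -0.59 to 0.02, edgeR adjusted p = 0.216), which did not pass the test.

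The value of Gpx4 is uncertain because the table also counts fragments for Gpx4-ps2, a processed pseudogene elsewhere on chromosome 10 (45751387 to 45751941). It is nearly the same sequence over the part that aligns. In the GENCODE M21 transcripts (GRCm38), matched by gene identifier, the 2 share 510 of 512 aligned bases (99.6%). The whole transcripts have 995 bases for Gpx4 and 555 for Gpx4-ps2. The stretch of 93 bases around the TGA codon that encodes selenocysteine (positions 340 to 432 of the 759 coding bases of Gpx4) shows why a short read may not tell them apart, since the 2 differ at a single base, in capitals.
Gpx4: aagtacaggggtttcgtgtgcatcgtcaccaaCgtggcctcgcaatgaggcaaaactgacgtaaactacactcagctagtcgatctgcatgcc
Gpx4-ps2: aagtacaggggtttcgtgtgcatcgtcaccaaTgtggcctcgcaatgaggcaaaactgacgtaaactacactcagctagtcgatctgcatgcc
Gpx4 held 32.0% to 36.0% of the counts of the pair in the 6 libraries, so more of the counts went to the pseudogene than to the gene. Gpx4-ps2 was at 68.5, 50.7 and 56.1 CPM in CD36+ NK and at 86.1, 69.9 and 69.0 CPM in CD36- NK. Summed over gene and pseudogene, the level was 105, 79.2 and 85.3 CPM against 127, 106 and 108 CPM, a log2 fold change of -0.34 (95% interval -0.66 to -0.02, edgeR adjusted p = 0.169). The sum was chosen after the values were seen, and it did not pass the test either. Counts of Acsl4 per count of Gpx4, driver over defence, were 1.14, 2.15 and 2.11 in CD36+ NK and 1.18, 1.78 and 1.58 in CD36- NK, and the groups overlapped with replicate 1 lowest in both.

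Slc7a11 (ENSMUSG00000027737), the gene of xCT, is on chromosome 3 (49846975 to 50398063, minus strand). It had 54, 37 and 36 counts in CD36+ NK and 32, 20 and 10 counts in CD36- NK, which were 4.81, 2.72 and 2.99 CPM against 2.46, 1.77 and 0.977 CPM. The groups did not overlap. The means were 3.51 ± 1.13 and 1.73 ± 0.742 CPM (SD, n = 3), and the log2 fold change of 0.99 (95% interval 0.06 to 1.92, edgeR adjusted p = 0.163) did not pass the adjusted threshold. At 10 to 54 counts per library the precision was low, and the standard error of 0.394 was close to that of Prnp, 0.402, and above those of the other 6 genes.

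Partners of Slc7a11 on the glutathione route did not pass the test. Slc3a2, the chain that carries xCT to the membrane, had 168 to 226 CPM in CD36+ NK libraries and 158 to 258 CPM in the others (log2 fold change -0.09, 95% interval -0.55 to 0.37, edgeR adjusted p = 0.831). Gclc and Gclm encode the catalytic and the modifier subunit of the enzyme that starts glutathione synthesis, and had log2 fold changes of 0.13 (95% interval -0.06 to 0.33) and 0.67 (95% interval 0.07 to 1.26), with edgeR adjusted p-values of 0.373 and 0.145. Of the 8 cystine and glutathione genes tested, Gpx4 and Slc7a11 included, 0 were called by edgeR and 0 by DESeq2, beside 10.5% and 15.7% of all tested genes. An unadjusted edgeR p below 0.05 was found for 5 of the 8 and for 26.3% of all tested genes.

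Aifm2 (ENSMUSG00000020085), the gene of ferroptosis suppressor protein 1, which reduces ubiquinone in membranes, lies on the plus strand of chromosome 10 from 61551042 to 61575039. It was at 8.19, 10.6 and 8.73 CPM in CD36+ NK and at 12.8, 11.8 and 14.0 CPM in CD36- NK. Each CD36+ NK library lay below each CD36- NK library, as in 15.7% of all tested genes. The means were 9.17 ± 1.26 and 12.8 ± 1.10 CPM (SD, n = 3), with a log2 fold change of -0.48 (95% interval -0.86 to -0.10, edgeR adjusted p = 0.106), which did not pass the adjusted threshold. Of the 8 quinone genes tested, Aifm2 included, 0 were called by edgeR and 1 by DESeq2, beside 10.5% and 15.7% of all tested genes, with a median log2 fold change of 0.24, beside 0.01 over all tested genes, and 2 of 8 at an unadjusted edgeR p below 0.05, beside the 26.3% of all tested genes.

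Gch1 (ENSMUSG00000037580), which encodes the first enzyme of tetrahydrobiopterin synthesis, is on chromosome 14 (47391352 to 47426870, minus strand). It was at 40.1, 35.3 and 43.1 CPM in CD36+ NK and at 37.0, 26.6 and 53.9 CPM in CD36- NK. The CD36+ NK values fell inside the range of the CD36- NK values. The means were 39.5 ± 3.91 and 39.2 ± 13.8 CPM (SD, n = 3), and the log2 fold change was 0.01 (95% interval -0.56 to 0.58, edgeR adjusted p = 0.982), so the interval leaves room for changes of more than 0.5 on the log2 scale in either direction. Of 5 tetrahydrobiopterin genes tested, 0 were called by edgeR and 0 by DESeq2, and 0 had an unadjusted edgeR p below 0.05, beside 10.5%, 15.7% and 26.3% of all tested genes.

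Nfe2l2 (ENSMUSG00000015839), the gene of NRF2, is on chromosome 2 (75505857 to 75534985, minus strand). It was at 124, 152 and 149 CPM in CD36+ NK and at 91.5, 99.6 and 86.3 CPM in CD36- NK. The groups did not overlap, and CD36+ NK replicate 1 was the nearest to the CD36- NK libraries. The means were 142 ± 15.7 and 92.5 ± 6.71 CPM (SD, n = 3), and Nfe2l2 rose 1.53-fold, with a log2 fold change of 0.61 (95% interval 0.35 to 0.88, edgeR adjusted p = 0.0186). This is below the 2-fold limit for a DEG. The call was lost when CD36+ NK replicate 2 or 3 or CD36- NK replicate 1 or 3 was left out, with edgeR adjusted p-values of 0.0755, 0.0747, 0.0684 and 0.0598 and log2 fold changes between 0.56 and 0.59. In these 4 fits 525 to 666 of all genes were called, against 1552 with the 6 libraries.

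NRF2 is held back by KEAP1, the adaptor that brings it to the ubiquitin ligase built on CUL3, and BACH1 competes with it at target genes. Keap1 was at 60.2, 50.5 and 62.7 CPM in CD36+ NK and at 66.7, 65.2 and 55.9 CPM in CD36- NK (log2 fold change -0.12, 95% interval -0.40 to 0.17, edgeR adjusted p = 0.608), and the groups overlapped. Counts of Nfe2l2 per count of Keap1 were 2.05, 3.02 and 2.37 in CD36+ NK and 1.37, 1.53 and 1.55 in CD36- NK, without overlap. Cul3 fell by 0.38 on the log2 scale (95% interval -0.58 to -0.19, edgeR adjusted p = 0.0327, and 0.0573 with no filter on low counts), from 179 to 200 CPM in CD36- NK to 145 to 147 CPM in CD36+ NK. Bach1 rose with a log2 fold change of 0.46 (95% interval 0.25 to 0.66, edgeR adjusted p = 0.0228), from 88.3 to 96.0 CPM to 116 to 130 CPM. Hmox1, the gene of heme oxygenase 1, which both factors act on and which frees iron from heme, was at 654, 712 and 1630 CPM against 93.9, 315 and 59.4 CPM. Its log2 fold change of 2.68 (95% interval 1.08 to 4.28, edgeR adjusted p = 0.0501) missed the threshold. Hmox1 passed in 3 of 8 alternatives with the 6 libraries, and without CD36- NK replicate 2 its log2 fold change was 3.70 (edgeR adjusted p = 0.00991). Of 13 NRF2 pathway genes tested, 2 were called higher and 1 lower, beside 5.07% and 5.44% of all tested genes, and the median log2 fold change was -0.09.

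Prnp (ENSMUSG00000079037), the gene of the prion protein, a copper-binding surface protein that KEGG places at the iron reduction step of ferroptosis, lies on the plus strand of chromosome 2 from 131751848 to 131780349. It had 158, 240 and 402 counts in CD36+ NK and 53, 85 and 40 counts in CD36- NK, which were 14.1, 17.7 and 33.4 CPM against 4.07, 7.52 and 3.91 CPM. The groups did not overlap, and in each group 1 library stood well above the others, CD36+ NK replicate 3 and CD36- NK replicate 2. With means of 21.7 ± 10.3 and 5.17 ± 2.04 CPM (SD, n = 3), Prnp rose 4.20-fold, a log2 fold change of 2.07 (95% interval 1.12 to 3.02, edgeR adjusted p = 0.0227). It was the 1 DEG among the 8 genes. The read-through gene Prn and its neighbour Prnd were at 0 counts in each library, so neither took counts beside Prnp. The call was lost when CD36+ NK replicate 2 or 3 or CD36- NK replicate 1 or 3 was left out (edgeR adjusted p = 0.0580, 0.0520, 0.0898 and 0.0861), with log2 fold changes from 1.62 to 2.20, the lowest without CD36+ NK replicate 3.

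The macrophage gene Adgre1 moved with Prnp from library to library. Adgre1, chosen after its values were seen, was at 225, 348 and 581 CPM in CD36+ NK and at 58.6, 135 and 35.6 CPM in CD36- NK, which puts the 6 libraries in the same order as Prnp. Prnp counts per Adgre1 count were 0.0624, 0.0508 and 0.0576 in CD36+ NK and 0.0696, 0.0558 and 0.110 in CD36- NK. These ratios overlapped between the groups, while the Prnp levels did not. Of the same marker list, Csf1r, Cd68, Timd4 and Cd5l had this order too. Marco, C1qa, C1qb and C1qc had it apart from CD36- NK replicates 1 and 3, which were swapped. Vsig4, Lyz2 and Clec4f did not have it. Lyz2 was at 4310, 4100 and 3490 CPM in CD36+ NK against 4750, 4330 and 2050 CPM, and Clec4f was at 0 in CD36+ NK replicate 3, the library with the most Prnp. Nfe2l2 followed the same order apart from CD36+ NK replicates 2 and 3. The 8 B cell genes had log2 fold changes of 0.40 to 0.68, with a median of 0.51. The part of macrophage or B cell RNA in the change of Prnp and Nfe2l2 was not tested.

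**Figure D2:**
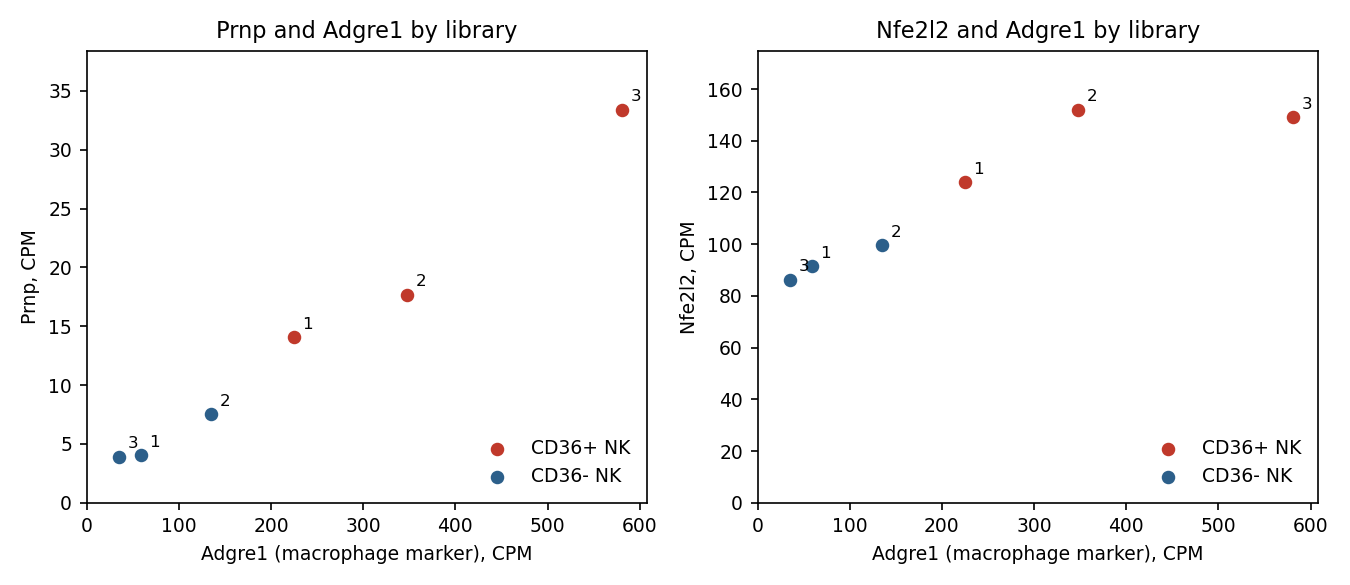
Prnp (left) and Nfe2l2 (right) against the macrophage marker Adgre1, all in CPM, with 1 point per library, red for CD36+ NK and blue for CD36- NK, numbered by replicate. Prnp goes from 3.91 to 33.4 CPM in the order of Adgre1, and Nfe2l2 from 86.3 to 152 CPM.

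Since these 2 genes moved in the same direction, the 250 bases before their start sites are shown, from RefSeq's GRCm38.p6. This is another build than that of the table, since the positions of both genes differ between them. Capitals mark GGGCGG on either strand, the core of a GC box.
Prnp, chr2:131909678-131909927, plus strand: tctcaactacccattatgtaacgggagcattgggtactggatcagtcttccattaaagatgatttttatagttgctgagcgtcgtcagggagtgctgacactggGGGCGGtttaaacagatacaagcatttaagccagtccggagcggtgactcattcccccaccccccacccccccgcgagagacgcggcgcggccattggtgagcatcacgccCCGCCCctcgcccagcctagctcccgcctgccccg
Nfe2l2, chr2:75704664-75704913, minus strand: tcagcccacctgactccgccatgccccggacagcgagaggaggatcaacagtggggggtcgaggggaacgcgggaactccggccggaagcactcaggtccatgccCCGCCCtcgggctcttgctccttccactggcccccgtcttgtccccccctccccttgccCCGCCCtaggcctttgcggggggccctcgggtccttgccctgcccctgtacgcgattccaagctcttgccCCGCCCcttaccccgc
The Prnp sequence holds 2 such matches and has a GC content of 58.8%, and that of Nfe2l2 holds 3 and has 70.4%. In 250 bases, a match was found in 8 of the 13 promoters that RefSeq gives for the 8 genes and in 32.7% of all 32851 promoters. The 32851 promoters were not limited to those of tested genes. CCAAT, on either strand, was found in 6 of the 13 and in 33.8% of all, with 2 matches in the Prnp sequence and 0 in that of Nfe2l2. The extended core of the antioxidant response element, to which NRF2 binds, was found on either strand in 0 of the 13 and in 3.04% of all promoters, in windows of 300 bases. Matches to GGGCGG and CCAAT can share no more than 2 bases at their ends, and the GC box and CCAAT searches were chosen after the values were seen.

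Ncoa4 (ENSMUSG00000056234), the receptor that brings ferritin to lysosomes so that its iron is released, lies on the plus strand of chromosome 14 from 31881822 to 31901812. It was at 25.3, 30.2 and 45.0 CPM in CD36+ NK and at 23.6, 21.0 and 19.1 CPM in CD36- NK. The groups did not overlap, although CD36+ NK replicate 1 and CD36- NK replicate 1 were close together. The means were 33.5 ± 10.2 and 21.3 ± 2.24 CPM (SD, n = 3). The log2 fold change of 0.65 (95% interval 0.14 to 1.17, edgeR adjusted p = 0.109) did not pass the adjusted threshold.

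As with Gpx4, the value of Ncoa4 is uncertain because the table also counts fragments for a pseudogene, Ncoa4-ps, on chromosome 12 from 119224713 to 119226590. The 2 share 1876 of 1878 aligned bases (99.9%) in the GENCODE transcripts, of which that of Ncoa4 has 4065 bases. In the middle of the coding sequence (positions 892 to 984 of 1875) they do not differ, and the 93 bases read the same in gene and pseudogene, so no base is in capitals.
Ncoa4 and Ncoa4-ps: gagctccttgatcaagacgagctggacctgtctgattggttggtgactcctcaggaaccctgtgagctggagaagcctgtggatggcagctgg
Ncoa4 held 29.3% to 33.6% of the counts of the pair. Ncoa4-ps, at 61.1, 61.3 and 89.0 CPM against 46.6, 46.2 and 43.0 CPM, had a log2 fold change of 0.64 (95% interval 0.26 to 1.02) and was called (edgeR adjusted p = 0.0499), though Ncoa4 itself was not. The call of Ncoa4-ps was lost with no filter on low counts (edgeR adjusted p = 0.0707), with a block by form of library name (0.0616) and in 5 of 6 fits with 1 library left out (0.0812 to 0.144), all but the one without CD36+ NK replicate 1. Gene and pseudogene summed to 86.3, 91.5 and 134 CPM in CD36+ NK and to 70.2, 67.3 and 62.1 CPM in CD36- NK, without overlap. The log2 fold change of the sum was 0.64 (95% interval 0.24 to 1.03, edgeR adjusted p = 0.0563), just short of the threshold. Without CD36+ NK replicate 1, Ncoa4 by itself passed, with a log2 fold change of 0.81 and an edgeR adjusted p of 0.0487.

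The genes around Ncoa4 and Prnp in iron handling were those of uptake, storage and export. Fth1, the heavy chain of ferritin, to which NCOA4 binds, was at 806, 772 and 989 CPM in CD36+ NK and at 517, 537 and 394 CPM in CD36- NK, and rose with a log2 fold change of 0.82 (95% interval 0.46 to 1.19, edgeR adjusted p = 0.0207). Trf, the gene of transferrin, rose with a log2 fold change of 2.01 (95% interval 0.83 to 3.20, edgeR adjusted p = 0.0477), from 63.7 to 190 CPM in CD36- NK to 278 to 792 CPM in CD36+ NK. The call of Trf was lost with no filter on low counts and with a block by form of library name (edgeR adjusted p = 0.0617 and 0.0567). The groups did not overlap in either gene, and CD36+ NK replicate 3 was the highest library for both genes.

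Of the other named iron genes, Ftl1 and Slc40a1 missed the threshold and their side of it turned on the setting, while Tfrc did not pass under any alternative. Ftl1, the light chain of ferritin, was at 613 to 1010 CPM against 240 to 458 CPM (log2 fold change 1.10, edgeR adjusted p = 0.0501), and Slc40a1, the iron exporter ferroportin, was at 335 to 824 CPM against 26.0 to 169 CPM (2.81, edgeR adjusted p = 0.0604). Ftl1 passed in 4 of 8 alternatives with the 6 libraries and Slc40a1 in 2 of 8. Without CD36- NK replicate 2, the log2 fold change of Slc40a1 was 4.16 (edgeR adjusted p = 0.00583). Ftl1 shares 99.6% of its aligned bases with the table's Ftl1-ps1, and the sum of both had a log2 fold change of 0.93 (95% interval 0.29 to 1.57, edgeR adjusted p = 0.0730). Tfrc, the transferrin receptor that brings iron in, was at 80.4, 67.0 and 81.3 CPM against 72.9, 55.8 and 64.8 CPM, with overlap and a log2 fold change of 0.24 (95% interval -0.07 to 0.55, edgeR adjusted p = 0.301). Of 17 iron handling genes tested, 3 (17.6%) were called, each of them higher in CD36+ NK, beside 10.5% of all tested genes called and 5.07% called higher, and the median log2 fold change was 0.65. The sums of macrophage and erythroid marker genes were higher in CD36+ NK as well, as given above, and their part in the iron genes was not tested.

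**Figure D3:**
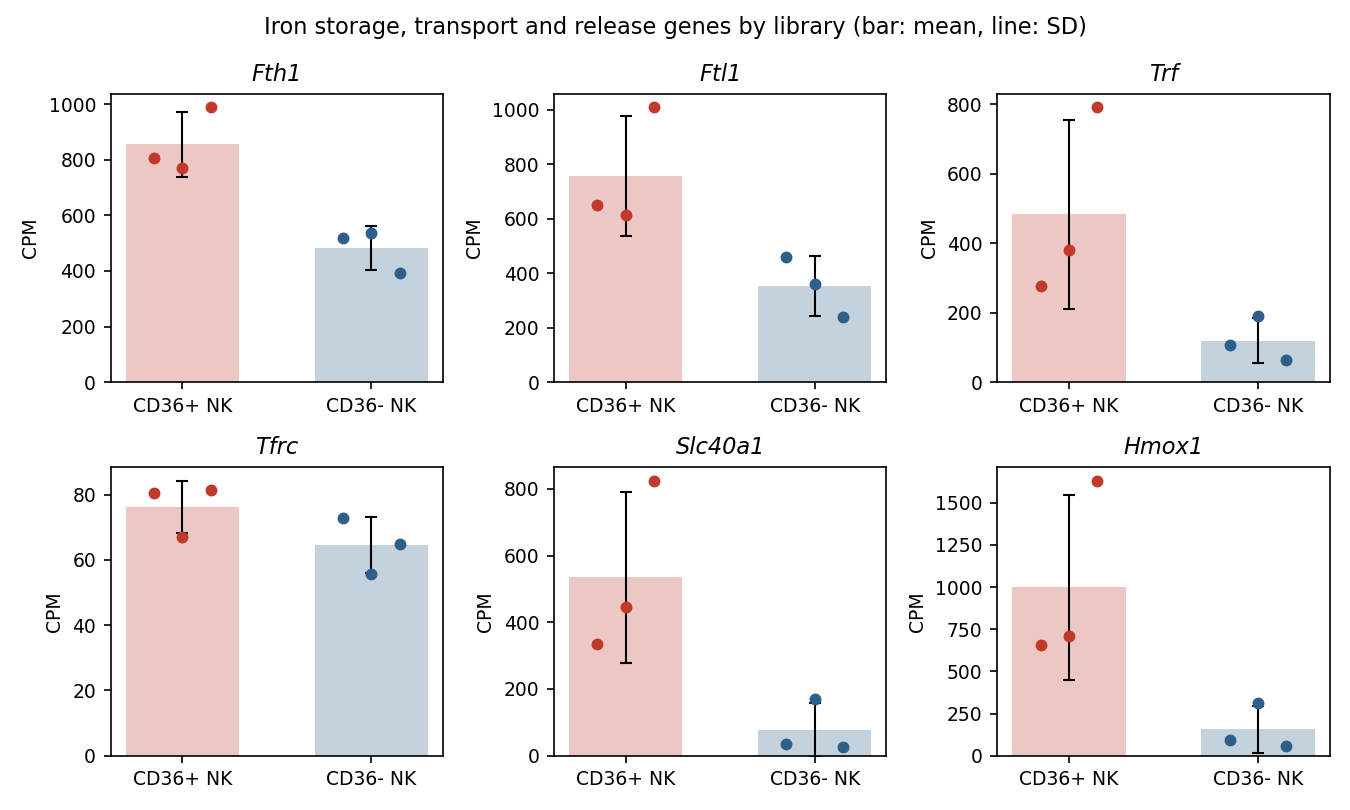
Level in CPM of 6 iron genes in the 3 CD36+ NK (red) and 3 CD36- NK (blue) libraries, with replicates 1 to 3 from left to right, bars for means and lines for SD. Fth1 and Trf passed the test, Ftl1, Slc40a1 and Hmox1 show groups apart but missed it, and the points of Tfrc overlap.

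A wider list of 82 ferroptosis genes, the 8 included, was read against the same background. Of its 76 tested genes, 8 (10.5%) were called, 7 higher and 1 lower. Of all tested genes 10.5% were called, 5.07% higher and 5.44% lower. In the list 58 genes had a positive and 18 a negative log2 fold change. Its median was 0.29, beside 0.01 over all tested genes. Without the 8 genes described, 6 of 68 (8.82%) were called. The calls outside the 8 genes were Alox5, Fth1, Trf and Bach1, already given, Cul3 on the lower side, and Scd1, the desaturase that makes the monounsaturated fatty acids which resist peroxidation. Scd1 rose with a log2 fold change of 0.45 (95% interval 0.24 to 0.66, edgeR adjusted p = 0.0248), from 362 to 402 CPM in CD36- NK to 513 to 550 CPM in CD36+ NK. With 1 library left out in turn, Alox5, Scd1 and Cul3 passed in 1 of 6 fits, Bach1 and Trf in 2 of 6 and Fth1 in 3 of 6, without a change of direction. The KEGG ferroptosis entry of the table lists 41 genes, among them Acsl4, Gpx4, Slc7a11, Ncoa4 and Prnp. Of its 37 tested genes, 3 (8.11%) were called, which were Prnp, Fth1 and Trf, all higher, and the median log2 fold change was 0.31. The calls thus held genes of peroxidation, of defence and of iron handling. Counted in both directions together, their shares were near that of all genes for the list and for the entry. The part of the makeup of the libraries in these calls was not tested.

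**Figure D4:**
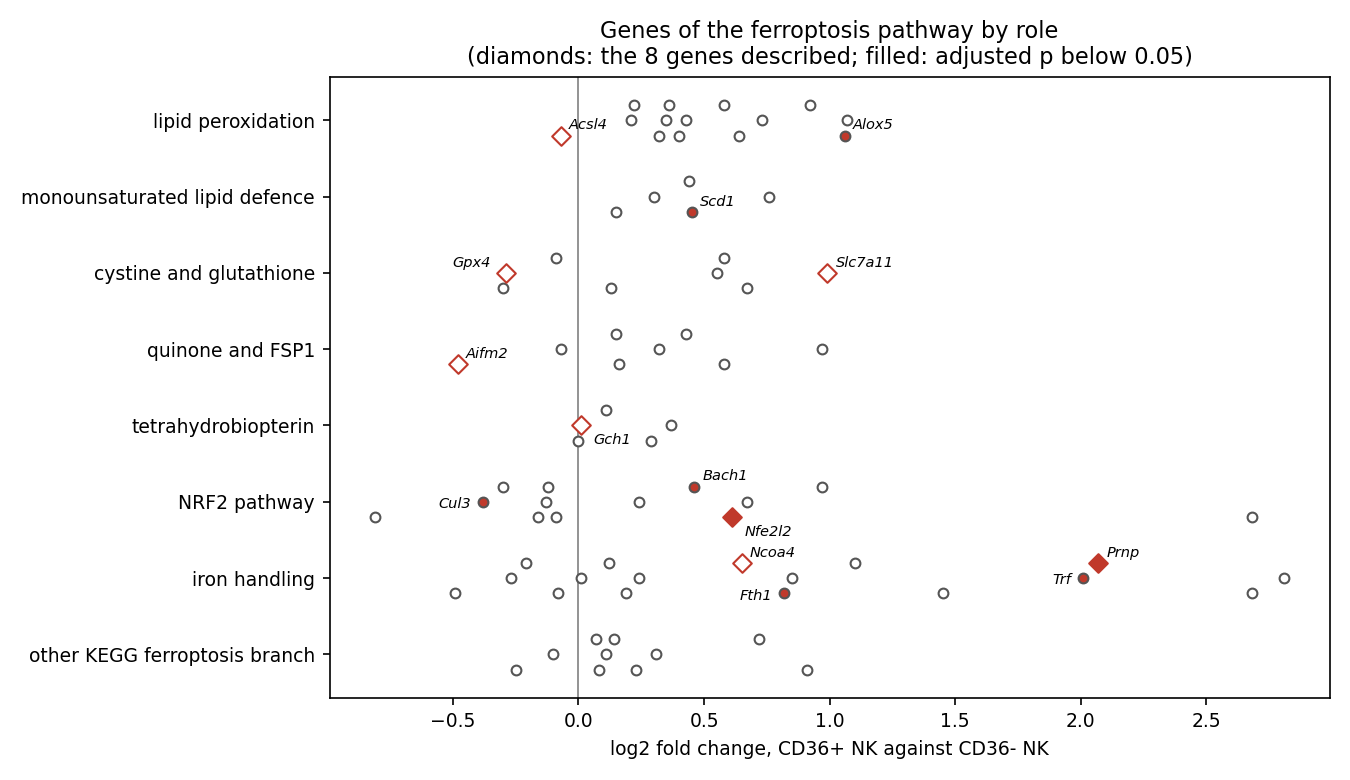
Log2 fold change, CD36+ NK against CD36- NK, of the tested genes of the wider list, set out by role, with diamonds for the 8 genes described, circles for the others and filled symbols for an adjusted p below 0.05. Filled symbols are present in 4 of the 8 roles, and the highest value, 2.81, is in iron handling.

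Levels between genes were compared per length, with the FPKM values (fragments scaled by gene length and library total) that the authors deposited. In CD36+ NK the order was Nfe2l2 at 35.5 ± 3.30 FPKM, Gpx4 at 11.1 ± 1.92, Prnp at 8.81 ± 3.93, Acsl4 at 8.45 ± 1.54, Gch1 at 6.19 ± 0.561, Ncoa4 at 2.53 ± 0.703, Aifm2 at 1.79 ± 0.243 and Slc7a11 at 0.221 ± 0.0771 FPKM (SD, n = 3). Gpx4, Prnp and Acsl4 overlapped as neighbours in this order, and so did Ncoa4 and Aifm2. In CD36- NK it was Nfe2l2 at 23.9 ± 2.15 FPKM, Gpx4 at 13.9 ± 0.627, Acsl4 at 9.15 ± 1.46, Gch1 at 6.28 ± 2.11, Aifm2 at 2.57 ± 0.177, Prnp at 2.18 ± 0.899, Ncoa4 at 1.66 ± 0.186 and Slc7a11 at 0.112 ± 0.0484 FPKM. There Acsl4 and Gch1 overlapped, and Prnp overlapped with Aifm2 and with Ncoa4. Nfe2l2 was the most and Slc7a11 the least expressed of the 8 genes in both groups, and Prnp stood at place 3 in CD36+ NK and at place 6 in CD36- NK. The FPKM of Gpx4 and Ncoa4 leave out the counts given to their pseudogenes. The lengths behind these FPKM were 2805 bases for Gpx4 and 12940 for Ncoa4, where the GENCODE transcripts aligned above have 995 and 4065, so the places of both genes are uncertain.

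Across the 6 libraries, up to 2 genes whose log2 CPM was most like that of each of the 8 are named as a description. For Prnp they were Cd86 (Pearson r = 0.9997) and Akr1b7 (0.9988), and for Nfe2l2 they were Pltp (0.9987) and Cdh17 (0.9983). Those 4 genes were called higher in CD36+ NK. For Ncoa4 they were Snupn (0.9967) and Dbp (0.9924), for Slc7a11 Ighv1-53 (0.9971), and for Aifm2 Sgsm2 (0.9967) and Srp9 (0.9915). For Gpx4 they were Nmnat2 (0.9940) and Capn1 (0.9927), for Acsl4 Limd1 (0.9927) and Secisbp2l (0.9889), and for Gch1 Jmy (0.9964) and Aff1 (0.9925). The genes named for these 6 were not called. The 6 libraries fall into 2 groups and each r is the highest of many genes, so the values rank genes and do not test a relation.

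**Figure D5:**
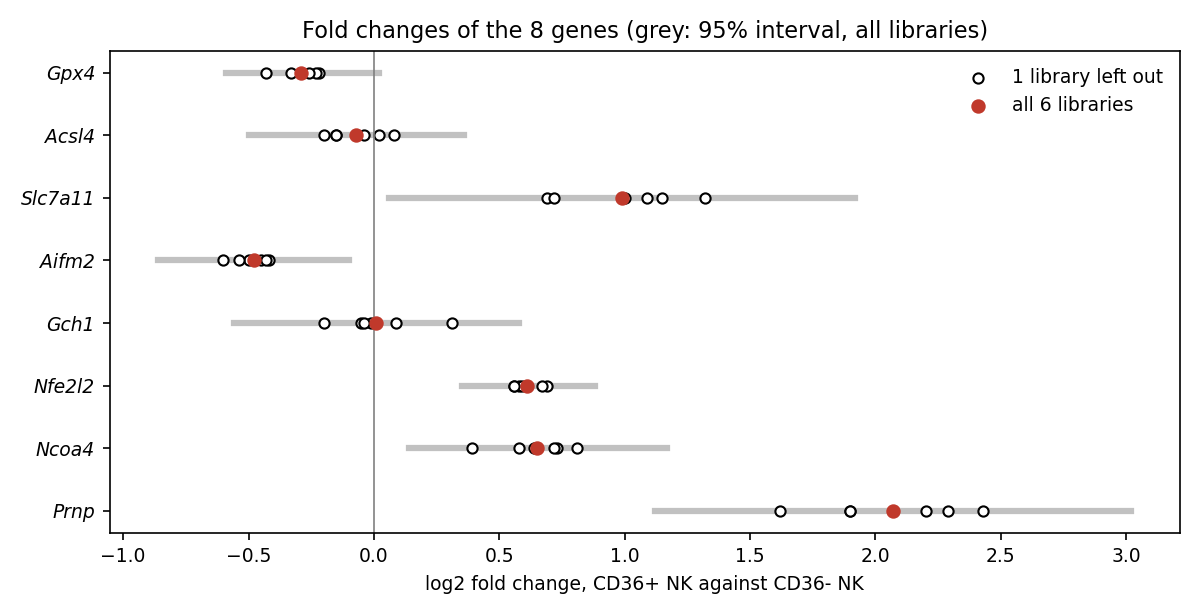
Log2 fold change, CD36+ NK against CD36- NK, of each of the 8 genes with the 6 libraries (red) and its 95% interval (grey), and with 1 library left out in turn (open circles). Prnp stays between 1.62 and 2.43 and Nfe2l2 between 0.56 and 0.69, while the circles of Acsl4 and Gch1 lie on both sides of 0.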

How the data were processed

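RNA of CD36+ NK and CD36- NK cells, 400 ng per sample by the study's methods, was sequenced in 3 libraries each. The authors filtered reads with Seqtk, mapped them with HISAT2 2.0.4 and counted fragments with StringTie, and they deposited raw counts of 57180 genes. FPKM values, which the authors also deposited, were used for levels between genes and not for tests. How reads that map to several genes were counted is not given in the sources used here. The submitters' processing notes name the rat build mRatBN7.2, while the identifiers are those of mouse genes. The lines of 2 genes were broken and were rejoined. The sign of CD36 in the library names differs from that in the titles; groups follow the titles.

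Counts were tested with edgeR 4.0.16 in R 4.3.3 by the quasi-likelihood test, with TMM scaling, filterByExpr at a minimum count of 10 and no block. The intervals are 95% intervals from the fitted error and its degrees of freedom. The script was checked on simulated counts. The 10292480 to 13787189 counts per library and a biological coefficient of variation of 20.3% limit the precision. Likeness used log2(CPM + 2). The 8 genes, the lists and the rule for named genes (the 8, fixed neighbours in the pathway, and up to 3 called genes of lowest p per role) were chosen with earlier results of these data known. Alternatives were DESeq2 1.42.0, other scalings and filters, blocks by replicate number or by form of library name, each library left out, a 1.5-fold limit, and, chosen after seeing the data, gene and pseudogene summed. Pseudogene pairs were aligned with Biopython 1.88. One gene of the likeness ranking is not reported here.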

Additional observations from a re-analysis of the deposited data

How the results depend on the processing

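With RLE or upper-quartile scaling, a filter of at least 10 counts in every library, or gene and pseudogene summed (added after seeing the data), the 8 genes kept their direction and their side of the threshold. The same held for the 8 genes with no filter on low counts and with DESeq2, but of the wider list 5 genes were called with no filter and 16 with DESeq2, against 8. Of all genes, 4.27% and 15.7% were called in these fits, against 10.5%. A 1.5-fold limit made 2 of the 8 genes DEGs in place of 1. Leaving out 1 library gave 0 to 3 called genes of the 8, 0 to 1 DEGs and 0 to 13 called genes of the wider list. When CD36+ NK replicate 2 or 3 was left out, or replicate 1 or 3 of CD36- NK, 0 of the 8 were called by edgeR, and fewer genes were called among all genes too. Over the 6 fits that each left out 1 library, the log2 fold changes ran from -0.43 to -0.22 for Gpx4, -0.20 to 0.08 for Acsl4, 0.69 to 1.32 for Slc7a11, -0.60 to -0.42 for Aifm2, -0.20 to 0.31 for Gch1, 0.56 to 0.69 for Nfe2l2, 0.39 to 0.81 for Ncoa4 and 1.62 to 2.43 for Prnp. Acsl4 turned positive when CD36+ NK replicate 1 (0.08) was left out, and likewise CD36- NK replicate 2 (0.02). Gch1 turned negative when replicate 1 (-0.01) or 3 (-0.05) of CD36+ NK was left out, or replicate 1 (-0.04) or 2 (-0.20) of CD36- NK. Over the same fits Slc3a2 ran from -0.26 to 0.07 and Lyz2 from -0.20 to 0.30. Slc3a2 turned positive when CD36+ NK replicate 2 (0.03) or CD36- NK replicate 3 (0.07) was left out, and Lyz2 negative in the latter case. Cd36 passed in each alternative. The cause of these changes was not tested. Slc7a11 had the fewest counts of the 8 genes, 10 to 54 per library.

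Deviations of same-numbered libraries from their group means correlated at 0.367, 0.0871 and -0.086 across genes, so the numbers were not taken to pair the samples. A replicate block was fitted all the same. In it 1 of the 8 genes was called and 0 were DEGs, 2 of the wider list were called and 907 of all genes, and Prnp had a log2 fold change of 2.01 (edgeR adjusted p = 0.0541). The calls of Fth1 (0.0675), Trf (0.109), Bach1 (0.0608), Scd1 (0.0615), Cul3 (0.0617), Ncoa4-ps (0.0892), Gpx1 (0.0709) and Cat (0.0866) were lost there as well, the values being edgeR adjusted p, and those of Nfe2l2 and Alox5 held. A block by form of library name, in which the replicate 1 libraries stand apart from replicates 2 and 3, called the same number of the 8 genes, 2.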

Other observations

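Lists of neighbouring antioxidant genes were added after the values were seen. Of 16 tested genes of other peroxidases, superoxide dismutases and thioredoxins, 3 (18.8%) were called, beside 10.5% of all tested genes, and their median log2 fold change was 0.30. Gpx1, the peroxidase of the cytosol, rose from 391, 397 and 215 CPM in CD36- NK to 592, 684 and 682 CPM in CD36+ NK (log2 fold change 0.97, 95% interval 0.42 to 1.51, edgeR adjusted p = 0.0424). Cat, the gene of catalase, rose from 133, 137 and 107 CPM to 172, 183 and 216 CPM (log2 fold change 0.60, 95% interval 0.28 to 0.91, edgeR adjusted p = 0.0357). The marker genes of macrophages and of erythroid cells had medians of 2.89 and 1.96, and their part in the values of Gpx1 and Cat was not tested. Gpx8, a peroxidase of the endoplasmic reticulum, went the other way, from 7.99, 4.86 and 7.13 CPM to 1.16, 1.25 and 1.25 CPM. It fell by 2.44 on the log2 scale (edgeR adjusted p = 0.00346), where the median over the 10 NK lineage genes was -2.43. The part of that shift in the value of Gpx8 was not tested. With 1 library left out in turn, Gpx8 passed in 6 of 6 fits, Gpx1 and Cat in 2 of 6. With no filter on low counts both calls were lost (edgeR adjusted p = 0.0591 and 0.0536), and that of Gpx1 also with a block by form of library name (0.0578). Gpx4, at -0.29, lay between Gpx8 and Gpx1 and was not called.

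Of 6 genes that insert selenocysteine, which GPX4 and GPX1 both need, 0 were called by edgeR and 1 by DESeq2, and 1, Sephs2, had an unadjusted edgeR p below 0.05, beside 10.5%, 15.7% and 26.3% of all tested genes. Sephs2, which makes the selenium donor, was at 59.6, 63.3 and 63.4 CPM in CD36+ NK and at 79.6, 78.1 and 71.6 CPM in the other group (log2 fold change -0.30, 95% interval -0.50 to -0.10, edgeR adjusted p = 0.0693).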
